A study of Drosophila melanogaster with 16 samples.

Results

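The juvenile hormone genes examined here are 8 genes that receive, carry out, make or end the hormone's signal: the receptor genes Met and gce, the target gene Kr-h1, the synthesis gene jhamt and the turnover genes Jhe, Jheh1, Jheh2 and Jheh3. They were named as a set with earlier results of these data known, and every exon entry of the deposited count files that carried one of their FlyBase symbols was taken. The 8 genes held 47 exon entries (46 distinct intervals) of the 87508 entries and 17753 genes in the files. An exon entry is 1 annotated exon interval of 1 gene, so exons that differ between transcripts appear as separate and often overlapping entries.

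Juvenile hormone is a lipid hormone that insects make in the corpora allata, small glands behind the brain. Inside cells it binds Met or its paralog Gce, transcription factors of the bHLH-PAS family, which then switch on Kr-h1, a zinc finger transcription factor. Esterases such as Jhe and epoxide hydrolases of the Jheh family break the hormone down. In adult flies the hormone is best known for its part in egg maturation, and it also acts on courtship and on the nervous system.

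The samples were whole heads of Drosophila melanogaster, frozen 10 to 12 days after eclosion and 1 to 2 h after lights on, with 4 libraries for each sex and fraction, where the fractions are total mRNA and TRAP. All groups, total mRNA included, came from flies of the genotype w/(w or Y); UAS-Gal4/UAS-GFP::RpL10A; fru P1-Gal4/+, about 1000 sex-sorted flies per sample. In TRAP (translating ribosome affinity purification), mRNA is recovered with GFP-tagged RpL10A, a ribosomal protein made here in cells where fru P1-Gal4 is active in either sex, and total mRNA is the head lysate before the pull-down. UAS-Gal4 amplifies the driver, and total mRNA holds all cell types of the head, the tagged cells included. The TRAP comparison asks which mRNAs were richer on the tagged ribosomes than in the whole head, and the sex comparison asks which differed between males and females.

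Summed exon counts lay between 15353672 and 25419045 per library. Values are given as CPM, counts relative to library size after scaling by TMM (a factor per library that sets most genes level), and an entry was called when its false discovery rate (FDR) over all tested entries was under 0.2, the threshold of the study. Of 11 neuron markers, read from 10 distinct exons because ChAT and VAChT share one, 9 of the 10 exons were called higher in male TRAP and all 10 in female TRAP, while all tested glia (8 and 7) and photoreceptor (8 and 8) markers were called lower. Fat body markers were mostly yolk protein genes in females: Yp1, Yp2 and Yp3 took 6.91 to 8.35% of the counts of female total mRNA against 0.0102 to 0.106% in male total mRNA. The fat body list also held Cyp4g1, a marker of oenocytes. With library totals in place of TMM, the median log2 fold change over all tested entries moved from 0.04 to 0.34 in male TRAP against total mRNA, from 0.06 to 0.47 in female TRAP against total mRNA and from 0.04 to 0.33 in males against females in total mRNA. The share of all called entries that were called higher moved with it, from 51.5 to 69.4%, from 52.5 to 68.9% and from 45.4 to 89%, and between the sexes in TRAP from 53.5 to 71.7%. In the interaction of sex and fraction the median moved from 0.04 to −0.18 and this share from 78.9 to 2.27%. Library totals called 15722 of 33155 tested entries higher and 6929 lower in male TRAP. In female TRAP they called 16433 of 30192 higher and 7401 lower. Between the sexes they called 607 of 32913 higher and 240 lower in TRAP, and 14497 of 31125 higher and 1797 lower in total mRNA. In the interaction 68 of 31299 were positive and 2926 negative.

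Read per length of exon, the receptor, target and hydrolase genes were within a few-fold of each other and the other 2 genes were near the detection limit. In male total mRNA the level was 22 CPM per kb for Jheh1, 17 for Jheh2, 14.2 for Kr-h1, 13.9 for Jheh3, 12.7 for gce and 9.01 for Met, with libraries of each neighbouring pair overlapping. In male TRAP the order was gce (12.5), Met (11.5), Kr-h1 (11), Jheh1 (7.5), Jheh2 (7.04) and Jheh3 (5.88), again with neighbours that overlapped. In female total mRNA it was gce (21.1), Jheh2 (18.8), Jheh1 (18) and Kr-h1 (16), each overlapping the next, then Met (9.41) and Jheh3 (7.9), each separate from the gene above it. In female TRAP the order was different, with gce at 15.3, Met at 14.9, Kr-h1 at 9.3, Jheh2 at 5.98, Jheh1 at 5.85 and Jheh3 at 2.78 CPM per kb. There the libraries of gce and Met overlapped, as did those of Jheh2 and Jheh1, and the other neighbours were separate. Jhe and jhamt were lowest in all 4 groups, with means of 0.405 to 0.868 CPM per kb for Jhe and 0.143 to 0.464 for jhamt.

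**Figure D1:**
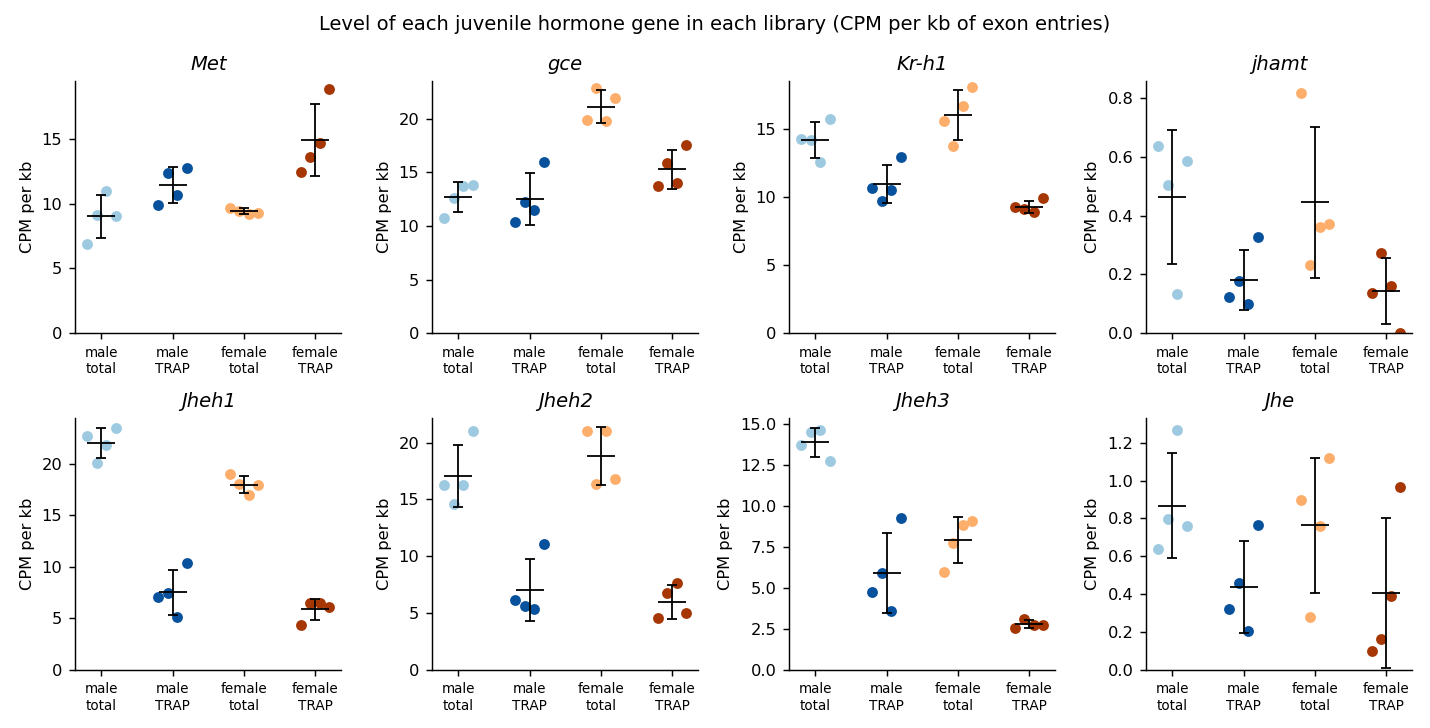
Level of each of the 8 genes in each of the 16 libraries, in CPM per kb of summed exon entries (vertical axis starts at 0); points are libraries, and the bar and whiskers are the mean and SD of 4. Jheh1 runs from 5.08 to 10.4 in male TRAP against 20.1 to 23.5 in male total mRNA, and Met from 12.5 to 18.9 in female TRAP against 9.18 to 9.71 in female total mRNA.

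Of the 47 entries, 24 passed the filter (CPM above 2 in a share of at least 0.6 of the 8 libraries) in male TRAP against total mRNA, and 3 were called higher and 9 lower, against 31.4% and 29.5% of all tested entries. In females 23 passed, with 3 higher and 18 lower, against 40.7% and 36.9% of all entries. Between male and female TRAP 1 of 23 was called higher and 0 lower, against 1.22% and 1.06% of all entries. There 3 had an unadjusted p under 0.05 (2 of Met, 1 of Jheh3), and DESeq2 also called 1 higher and 0 lower. In total mRNA 3 of 28 were higher and 13 lower in males, against 10.1% and 12.1%. Jhe and jhamt had no entry past the filter in any comparison, so these counts describe the other 6 genes. The median log2 fold change of the members that passed was −0.23 in males and −0.45 in females for TRAP against total mRNA, where the median of all tested entries was 0.04 and 0.06. Libraries of the 2 groups did not overlap for 0 higher and 7 lower of the 24 entries in males, against 18.9% and 19.6% of all tested entries, and for 3 higher and 14 lower of the 23 in females, against 27.7% and 32.1%.

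Met (FBgn0002723; dm6, chrX:11616124-11621280, plus strand) was higher in TRAP than in total mRNA in females, and in males by less. Summed over its 3 entries, where overlapping entries share reads, the 4 female total mRNA libraries had 66.1, 64.3, 62.5 and 63.4 CPM and the 4 female TRAP libraries 85.1, 92.4, 99.9 and 129. The female groups did not overlap. The male total mRNA libraries had 46.7, 62.3, 74.6 and 61.7 CPM and the male TRAP libraries 67.6, 84.4, 72.5 and 87.5, and these groups overlapped through the third library of total mRNA and the lower TRAP libraries.

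The entry with the highest mean CPM of Met is its longest last exon (chrX:11618230-11621280, coding sequence and 3′ UTR). Its log2 fold change was 0.83 ± 0.15 (SE, n = 4 per group) in females, at FDR 3.52e-06, and 0.33 ± 0.20 in males, at FDR 0.197. All 3 Met entries were called higher in both sexes, with log2 fold changes of 0.65 to 0.83 in females and 0.32 to 0.38 in males. In males 0 of the 3 had an unadjusted p under 0.05. DESeq2 and RLE scaling did not call the entry of highest mean CPM in males, and the quasi-likelihood test did. The female calls held in each of the 8 fits that left out 1 library. In males all 3 calls were lost without male total mRNA 1, without male total mRNA 2, without male TRAP 2 or without male TRAP 5, and 2 of 3 without male total mRNA 4. With counts summed per gene, Met was called in males too, at a log2 fold change of 0.37 ± 0.14 and FDR 0.0377. Neuron markers moved with Met: their summed level over the 10 exons was 1374 to 2230 CPM in male total mRNA and 2741 to 3253 CPM in male TRAP, 1106 to 1596 CPM in female total mRNA and 2848 to 4070 CPM in female TRAP, with none under 1 CPM on average, and their part in the result was not tested. In bulk samples, fewer cells that hold an mRNA and less of that mRNA per cell cannot be told apart.

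Between the sexes, Met in total mRNA differed by a log2 fold change (male over female) of 0.01 ± 0.17, at FDR 0.986. In TRAP it was −0.39 ± 0.16 at FDR 0.505, with the male libraries at 25.4 to 32.6 CPM and the female libraries at 31.9 to 51.8 CPM for the described entry. The interaction of sex and fraction was −0.40 ± 0.25, at FDR 0.594, so a difference between the sexes in Met's TRAP effect was not detected.

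gce (FBgn0261703; dm6, chrX:15297766-15319074, plus strand), the second receptor gene, was lower in total mRNA of male heads than of female heads. Summed over its 14 entries, some of which overlap and share reads, male total mRNA libraries had 66.4, 78.6, 85.5 and 85.8 CPM and female total mRNA libraries had 124, 143, 123 and 137. Every female library lay above every male library. Of 11 tested entries 10 were called lower in males, with log2 fold changes from −0.96 to −0.42, and the exception was a first exon of the 5′ UTR (chrX:15299009-15299583), at −0.36 ± 0.35 and FDR 0.603. Per gene the difference was −0.72 ± 0.11, at FDR 7.26e-07. It was not even along the gene. In this comparison the last exon exceeded the median of the other gce entries by 0.41 on the log2 scale. Over 4299 genes the median of this measure was 0.15 and the upper quartile 0.28.

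The gce entry with the highest mean CPM is the last exon (chrX:15317613-15319074, coding sequence and 3′ UTR). It had 17.3 to 28.4 CPM in male total mRNA and 30.3 to 35.6 CPM in female total mRNA, a log2 fold change of −0.42 ± 0.17 at FDR 0.137. This call was lost without male total mRNA 1 or 4 and without female total mRNA 3, 4 or 5, and without female total mRNA 3 the lower calls of the 8 genes in this comparison went from 13 to 7. Scaled by library totals, 6 of the 11 gce entries stayed called lower and none was called higher. Fat body markers moved with this difference: 5 of 7 tested were called lower in males and 1 higher, their summed level was 2005 to 2476 CPM in male and 54375 to 72565 CPM in female total mRNA, and Fbp1 averaged 0.129 and 0.0136 CPM. Muscle markers moved too, with 6 of 7 tested called lower in males and a summed level of 263 to 438 against 418 to 898 CPM. Neuron markers went the other way, with 8 of 10 exons called higher in males and 0 lower. So did photoreceptor markers, with 3 of 8 higher and 0 lower. Of 8 glia markers 2 were called higher and 1 lower. The part of all these markers in the result was not tested.

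In TRAP, gce was not called between the sexes. Summed CPM was 64.8, 75.7, 71.7 and 99.3 in male TRAP and 85.2, 98.8, 87 and 110 in female TRAP, and the groups overlapped. None of the 11 tested entries was called by edgeR's exact test (0 had an unadjusted p under 0.05) or by DESeq2. Without male TRAP 5, which had the highest gce level of the male TRAP libraries, 2 entries of the 5′ UTR were called lower in males, at −1.04 and −0.76.

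Against total mRNA, gce in female TRAP was called lower in 9 of 11 entries, at −0.68 to −0.35, and higher in none. Of the 11, 6 had an unadjusted p under 0.05. With library totals as the scaling 0 were lower and 1 was higher, against 7401 and 16433 of all 30192 tested entries. Without the filter 1 was lower, against 17936 of all 80017. Of the 9 calls with TMM and the filter, 3 were lost without female TRAP 4, 2 without female TRAP 2, female total mRNA 3 or female total mRNA 5, and 1 without female TRAP 3 or female total mRNA 4. Per gene the log2 fold change was −0.46 ± 0.12, at FDR 0.00124. The last exon was not called, at −0.15 ± 0.13 and FDR 0.387, though it was without female total mRNA 2 (−0.23, FDR 0.192). In females the last exon exceeded the median of the other gce entries by 0.27 on the log2 scale, where the median of this difference over 4190 genes was 0.29. In male TRAP only the 5′ UTR exon at chrX:15299009-15299583 was called lower, at −0.78 ± 0.37 and FDR 0.0806, a call that was lost without male total mRNA 3, male TRAP 1 or male TRAP 4. The other 9 tested entries lay between −0.13 and 0.26. The interaction was −0.27 to 0.82 over the 11 entries, with 4 at an unadjusted p under 0.05 and none called. The 7 entries at the 3′ end of gce overlap asRNA:CR44961 on the other strand, and counting did not use strand, so reads of the pair cannot be told apart.

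**Figure D2:**
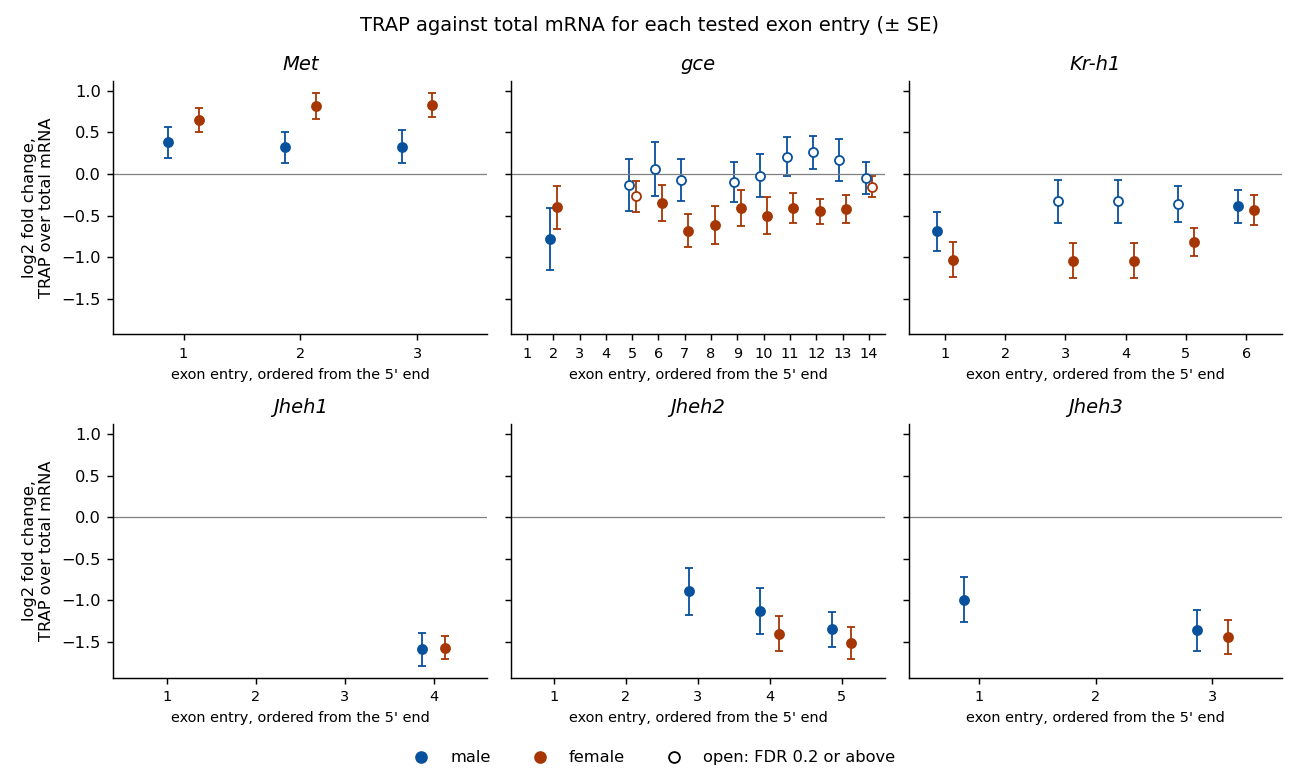
Log2 fold change of TRAP over total mRNA (vertical axis) for each exon entry past the filter, placed by its order from the 5′ end (horizontal axis), in males and females; whiskers are ± SE and open points were not called. Met lies above 0 at all entries, the female gce values lie between −0.68 and −0.15, and the Jheh1, Jheh2 and Jheh3 values lie between −1.59 and −0.89 in both sexes.

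Because both receptor genes are read in the same library, their ratio does not depend on how libraries were scaled. Met over gce, each in CPM per kb, was 0.643, 0.724, 0.798 and 0.657 in male total mRNA and 0.489, 0.412, 0.465 and 0.423 in female total mRNA. In TRAP it was 0.952, 1.02, 0.924 and 0.805 in males and 0.913, 0.855, 1.05 and 1.07 in females. The TRAP libraries of each sex lay above all total mRNA libraries of that sex, the total mRNA libraries of the sexes were separate, and the TRAP libraries of the sexes overlapped. These ratios are a description with no test.

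**Figure D3:**
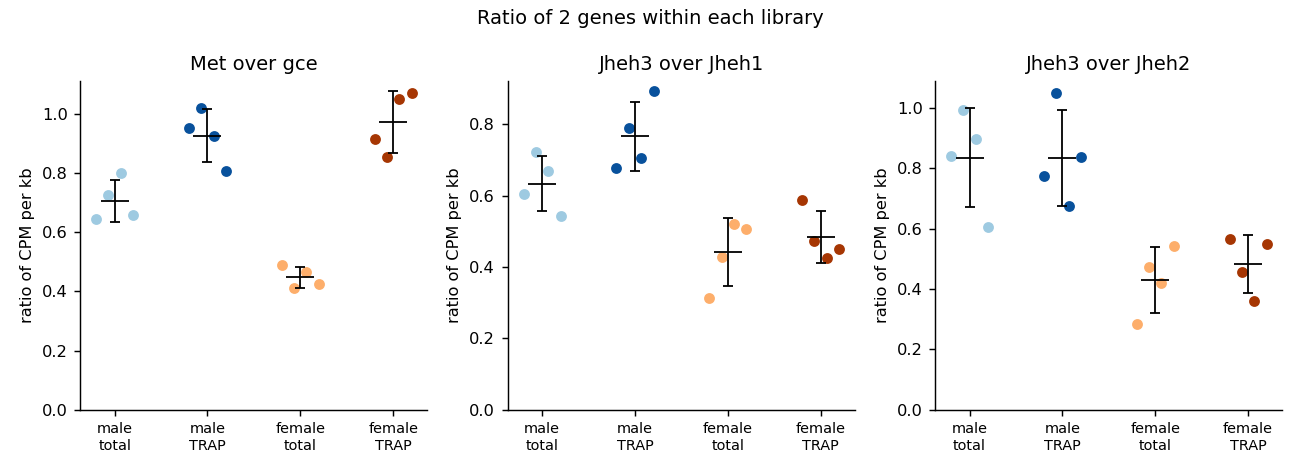
Ratios of CPM per kb within each library (vertical axis, from 0) for Met over gce, Jheh3 over Jheh1 and Jheh3 over Jheh2 in the 4 groups; points are libraries, bar and whiskers the mean and SD of 4. Met over gce has a mean of 0.447 in female total mRNA and 0.972 in female TRAP, and Jheh3 over Jheh1 has a mean of 0.634 in male and 0.442 in female total mRNA.

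Kr-h1 (FBgn0266450; dm6, chr2L:6082603-6096498, plus strand), the gene that the hormone receptors switch on, was lower in TRAP than in total mRNA. Summed over its distinct entries it had 82.5, 73, 88.7 and 96.2 CPM in female total mRNA and 49.1, 48.4, 47.3 and 52.7 in female TRAP, with no overlap. In males it had 76, 75.5, 66.7 and 83.9 CPM in total mRNA and 56.6, 51.6, 55.9 and 68.8 in TRAP, and the highest TRAP library lay above the lowest total mRNA library. Per gene the log2 fold change was −0.78 ± 0.12 in females, at FDR 3.7e-08, and −0.36 ± 0.14 in males, at FDR 0.0374.

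By exon, all 5 tested Kr-h1 entries were called lower in females, from −1.04 to −0.43, and 2 of 5 in males. The first exon (chr2L:6082603-6083740, 5′ UTR) had 4.4 to 6.46 CPM in female total mRNA and 2.01 to 2.82 CPM in female TRAP, at −1.03 ± 0.21 and FDR 2.05e-05. In males it was 3.38 to 5.35 CPM against 2.42 to 2.81 CPM, at −0.69 ± 0.23 and FDR 0.011. The last exon (chr2L:6095238-6096498, coding sequence and 3′ UTR), which has the highest mean CPM, was at −0.43 ± 0.18 in females (FDR 0.0472) and −0.39 ± 0.20 in males (FDR 0.137). The female last exon exceeded the median of the other entries by 0.61, where the upper quartile over all genes was 0.59. For this last exon the call in males was lost without male total mRNA 2 or 3 and without male TRAP 1, 2 or 4, that in females was lost without female total mRNA 5, and under library totals it was called in neither sex (−0.09 and −0.03) while 4 female entries and 1 male entry stayed lower.

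Kr-h1 was not called between the sexes in either fraction. In total mRNA the log2 fold changes (male over female) were −0.33 to 0.02 with FDR of 0.476 or above, and in TRAP they were 0.14 to 0.47 with FDR of 0.615 or above. For the 5 entries, the sex by fraction interaction was 0.14 to 0.81 and was not called, with 2 entries, which share 1 interval, at an unadjusted p under 0.05. The alternative first exon (chr2L:6091412-6092244) stayed under the filter, at 0.349 to 0.884 CPM in female TRAP and 0.865 to 1.63 CPM in male TRAP. All 4 entries of the gene CG45075 lie on the same strand and repeat intervals of Kr-h1 with identical counts, so only the first exon at chr2L:6082603-6083740 counts reads of Kr-h1 alone.

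The 3 epoxide hydrolase genes, which lie side by side on the minus strand (dm6, chr2R:18853434-18862078), were lower in TRAP than in total mRNA in both sexes. Jheh1 (FBgn0010053) had 33.7, 29.8, 32.4 and 34.9 CPM in male total mRNA and 10.5, 11.1, 7.54 and 15.4 in male TRAP. In females it had 28.3, 26.8, 25.2 and 26.6 CPM in total mRNA and 6.47, 9.67, 9.62 and 9.02 in TRAP. TRAP and total mRNA libraries were far apart in each sex. Its last exon (chr2R:18853434-18854264), its only entry tested in TRAP, was lower in both, with log2 fold changes of −1.59 ± 0.20 in males (FDR 1.73e-12) and −1.57 ± 0.14 in females (FDR 1.43e-20).

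Jheh2 (FBgn0034405) had 36.1, 32.3, 36 and 46.5 CPM in male total mRNA and 13.6, 12.5, 11.8 and 24.5 in male TRAP. Female values were 46.5, 36.2, 46.6 and 37.2 CPM in total mRNA and 10, 15, 16.9 and 11 in TRAP. Its last exon (chr2R:18855767-18856691) was at −1.35 ± 0.21 in males (FDR 3.36e-08) and −1.51 ± 0.19 in females (FDR 3.64e-12). The other tested Jheh2 entries were called lower as well, 2 in males (−1.13 and −0.89) and 1 in females (−1.40).

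Jheh3 (FBgn0034406) had 21.6, 22.8, 23 and 20 CPM in male total mRNA and 7.52, 9.32, 5.64 and 14.6 in male TRAP. In females it had 9.41, 12.1, 14 and 14.3 CPM in total mRNA and 4.03, 4.86, 4.33 and 4.31 in TRAP, again without overlap. Its last exon (chr2R:18860375-18861192) was at −1.36 ± 0.25 in males (FDR 2.85e-06) and −1.44 ± 0.21 in females (FDR 6.53e-09). Its first exon was tested in males and was at −0.99 ± 0.27, at FDR 0.0015.

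For the described entries of Jheh1, Jheh2 and Jheh3, the TRAP calls held in both sexes under every alternative run, the library totals and the fits without 1 library included. The interaction was 0.08 ± 0.23 for Jheh1, 0.26 ± 0.30 for Jheh2 and 0.18 ± 0.35 for Jheh3, each with FDR of 0.769 or above. Glia markers moved with these genes: their summed level was 709 to 771 CPM in male total mRNA and 191 to 357 CPM in male TRAP, 568 to 637 CPM in female total mRNA and 150 to 236 CPM in female TRAP, with none of the 8 under 1 CPM on average. All 8 photoreceptor markers fell in TRAP too (summed 15781 to 21146 against 4837 to 8984 CPM in males, 13264 to 16369 against 3145 to 5049 CPM in females). Muscle markers fell in 6 of 7 tested genes in each sex and 1 rose in females, and fat body markers fell in 4 of 7 in males and 7 of 7 in females. The part of these cell types in the result was not tested. Male TRAP 5 was the highest male TRAP library for Jheh1, Jheh2, Jheh3 and the glia, photoreceptor, muscle and fat body markers alike. It was also the highest for Met, gce, Kr-h1, jhamt and Jhe, though not for the neuron markers. An antisense gene, asRNA:CR46485, overlaps the exons of the 3 genes apart from the first exon of Jheh3, so reads of that strand would be counted here as well.

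Jheh3 was higher in males than in females in both fractions. In total mRNA its last exon had 15, 16.9, 16.6 and 13.2 CPM in males and 6.15, 7.19, 10.6 and 9.75 in females, a log2 fold change of 0.93 ± 0.19 at FDR 0.000275. Its first exon (chr2R:18861526-18862078), which no other annotated gene overlaps, differed by 0.79 ± 0.21, at FDR 0.0106. In TRAP the last exon had 5.1, 5.53, 3.5 and 9.93 CPM in males and 2.67, 2.65, 3.19 and 3.01 in females, at 1.11 ± 0.29 and FDR 0.0416. Every male library lay above every female library in both fractions. The TRAP difference was 0.74 without male TRAP 5, still called at that setting, and was not called by the quasi-likelihood test (1.11, FDR 0.226). Glia markers had a median log2 fold change of 0.44 over the 7 tested in TRAP, with alrm called higher at 0.82, and in total mRNA 2 of 8 were called higher (alrm at 0.79, Gs2 at 0.41) and 1 lower. Photoreceptor markers were called higher in males for ninaE in TRAP (0.78) and for 3 of 8 in total mRNA (Rh4 at 0.41, norpA at 0.72 and ninaC at 0.45). Neuron markers were called higher in males in 8 of 10 exons in total mRNA, cac at 0.70 the furthest, and in 0 of 10 in TRAP by the exact test or DESeq2, with 1 at an unadjusted p under 0.05. Muscle and fat body markers went the other way. In total mRNA 6 of 7 muscle markers were lower in males and 0 higher, and of 7 fat body markers 5 were lower and 1 higher. In TRAP 3 of 7 fat body and 1 of 7 muscle markers were called lower and 0 higher. The part of all these markers in the result was not tested.

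Jheh1 and Jheh2 gave smaller and mixed sex differences. In total mRNA the last exon of Jheh1 had 22.3 to 24.9 CPM in males and 19 to 20.4 CPM in females, a log2 fold change of 0.33 ± 0.12 at FDR 0.137, and the call was lost without female total mRNA 2, 3 or 4. Within Jheh2 the values were not even. Its 2 overlapping first exons, which had the same values in every group, were at −0.54 ± 0.23 (FDR 0.16). The next exon was at −0.48 ± 0.20 (FDR 0.148), and all 3 entries were called lower in males. The exon before the last was at −0.25 ± 0.20 (FDR 0.544) and the last exon at 0.12 ± 0.16 (FDR 0.757), neither called. These 3 Jheh2 calls were all lost without male total mRNA 2 or 3 and without female total mRNA 2, 3 or 4, 2 were lost without male total mRNA 1 and 1 without female total mRNA 5, and with library totals none was called lower and the last exon was called higher. The last exon exceeded the median of the other Jheh2 entries by 0.63 in this comparison, where the median over 4299 genes was 0.15. In TRAP neither gene was called between the sexes, with FDR of 0.679 or above.

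**Figure D4:**
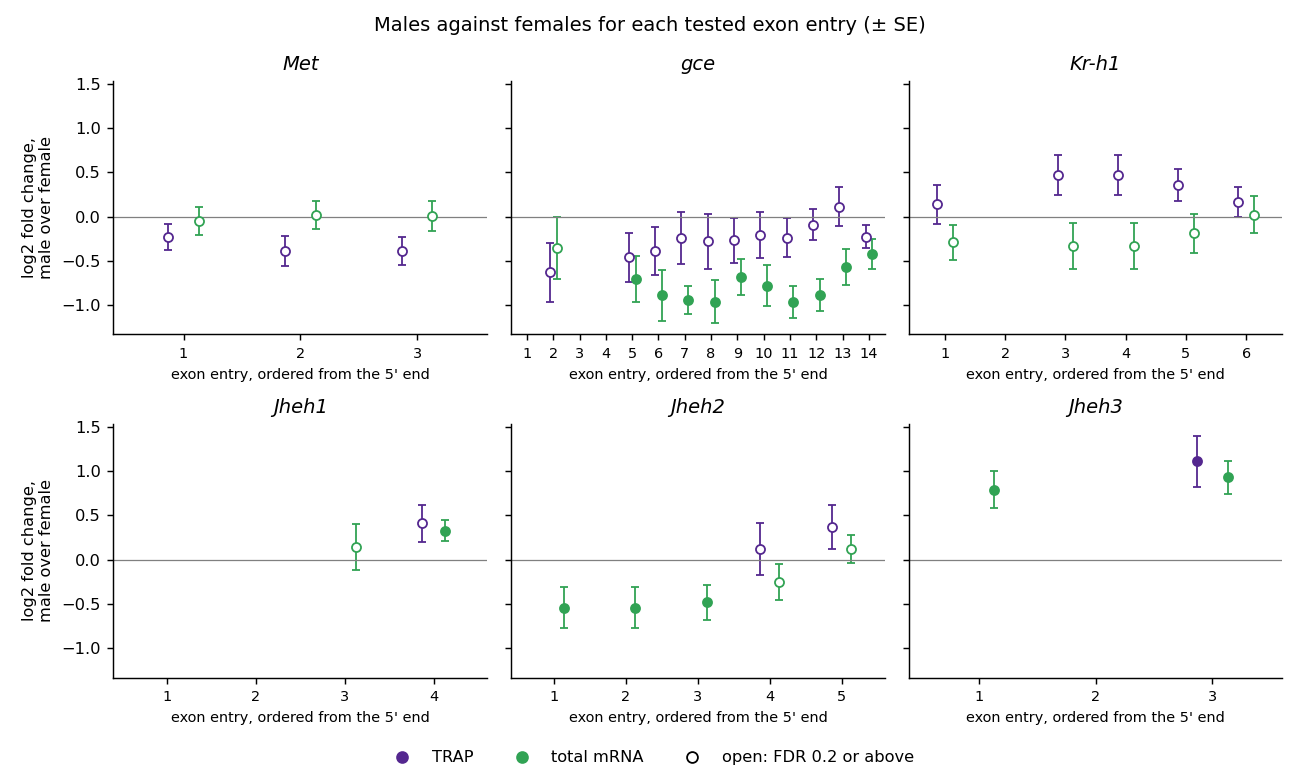
Log2 fold change of males over females (vertical axis) for each exon entry past the filter, placed by its order from the 5′ end (horizontal axis), in TRAP and in total mRNA; whiskers are ± SE and open points were not called. The gce entries in total mRNA lie between −0.96 and −0.36, and the Jheh3 entries lie between 0.79 and 1.11 in both fractions.

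Within a library, Jheh3 over Jheh1 (CPM per kb) was 0.542 to 0.721 in male total mRNA and 0.314 to 0.521 in female total mRNA, and 0.677 to 0.892 against 0.424 to 0.587 in TRAP. Jheh3 over Jheh2 was 0.606 to 0.992 in male and 0.284 to 0.542 in female total mRNA, and 0.673 to 1.05 against 0.359 to 0.564 in TRAP. The male and female libraries were separate for both ratios in both fractions, a description that does not depend on scaling.

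jhamt (FBgn0028841; dm6, chr2L:16365903-16367039, plus strand), the methyltransferase of the last steps of hormone synthesis, was near the detection limit. Its 3 entries, where a read of the overlapping second exons counts in both, had summed counts of 21, 16, 3 and 20 in male total mRNA, 4, 7, 4 and 11 in male TRAP, 22, 6, 8 and 8 in female total mRNA and 5, 7, 4 and 0 in female TRAP. The library with a count of 0 allows up to 3 counts, or 0.163 CPM before TMM scaling. TRAP means were lower than total mRNA means, at 0.256 against 0.657 CPM in males (exact two-sided permutation test of 4 against 4, p = 0.0857) and 0.202 against 0.629 CPM in females (exact permutation p = 0.0571), with groups that overlapped. Neither passed 0.05. Akh, a marker of the corpora cardiaca, the gland next to the corpora allata, was under 1 CPM in all libraries except male TRAP 4, where it had 3.67 CPM.

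Jhe (FBgn0010052; dm6, chr2R:16119793-16122773, plus strand), the juvenile hormone esterase, was also low. Its 9 entries, of which 2 overlap and share reads, had summed counts of 35, 42, 48 and 43 in male total mRNA, 17, 30, 14 and 43 in male TRAP, 40, 12, 28 and 40 in female total mRNA and 6, 7, 16 and 40 in female TRAP. Mean levels were 2.04 and 1.03 CPM in male total mRNA and TRAP (exact permutation p = 0.0857) and 1.79 and 0.95 CPM in female total mRNA and TRAP (exact permutation p = 0.257). Between the sexes the exact permutation p was 0.629 in total mRNA and 0.857 in TRAP for Jhe, and 0.914 and 0.629 for jhamt. These are 8 unadjusted tests over 2 genes, with a smallest possible p of 0.0286, and none passed 0.05. In the fit without the filter, 1 Jhe exon (chr2R:16120716-16120859) was called lower in female TRAP, at FDR 0.14, with counts of 3, 2, 1 and 2 in total mRNA and 0, 0, 0 and 1 in TRAP.

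No entry of the 6 tested genes was called for a different TRAP effect in males and females, against 0.0479% of all entries called higher and 0.0128% called lower in this interaction (edgeR's quasi-likelihood test). Of the 23 member entries, 6 had an unadjusted p under 0.05, 4 in gce and 2 in Kr-h1, and DESeq2 called 0. With library totals, 2 Met entries were called, both negative, as were 2926 of all 31299 tested entries. The gene-level values were 0.52 ± 0.20 for gce (FDR 0.358) and 0.48 ± 0.18 for Kr-h1 (FDR 0.352).

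Genes that work with or around these 8 were read from 5 lists, 25 genes in all, with 1 entry per gene, the one with the highest mean CPM. Over all genes read this way, 38.2% were called higher and 30.5% lower in male TRAP, 52.3% and 31.4% in female TRAP, 1.19% and 1.68% in male against female TRAP, and 13.5% and 10.8% in male against female total mRNA. Of 4 partners of the receptors, 2 were called higher in male TRAP and 3 in female TRAP, none lower. The nuclear receptor gene ftz-f1 had, in females, 66.4 ± 17.1 CPM (SD, n = 4) in TRAP and 31.7 ± 5.51 in total mRNA, at 1.16 ± 0.19 and FDR 3.98e-08. In males ftz-f1 was not called, at 0.33 ± 0.26 and FDR 0.318, with libraries that overlapped. Nup358, a nuclear pore gene, was at 0.54 ± 0.17 in females (FDR 0.00596) and 0.34 ± 0.18 in males (FDR 0.159). Between the sexes 0 of the 4 were called in TRAP or in total mRNA by the exact test or DESeq2. In either fraction 0 had an unadjusted p under 0.05. Library totals called 2 higher in male total mRNA, where that scaling called 14497 of all 31125 tested exon entries higher.

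The 6 genes known as hormone response genes or antagonists of Kr-h1 were split: in males 3 were called higher and 3 lower in TRAP, in females 2 and 3, and with library totals 3 and 2 in males and 3 and 1 in females. Eip93F, whose product and Kr-h1 repress each other's genes in the beetle Tribolium, was lower in TRAP, with 331 ± 46.7 against 499 ± 43.4 CPM in females (−0.49 ± 0.14, FDR 0.0028) and 335 ± 96.7 against 497 ± 145 CPM in males (−0.58 ± 0.25, FDR 0.0553). Eip75B, a nuclear receptor gene of the ecdysone response, was higher, at 1.10 ± 0.16 in females (FDR 5.22e-10) and 0.59 ± 0.21 in males (FDR 0.0182). The list's median was −0.08 in males and −0.14 in females, where the median of all genes was 0.14 and 0.33. Between male and female TRAP none of the 6 was called by the exact test or DESeq2 (0 at an unadjusted p under 0.05), and in total mRNA 1 was called lower in males.

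The 7 enzyme genes upstream of jhamt, from the mevalonate and farnesyl pathway, were called higher in 1 and lower in 1 of 7 in male TRAP, and higher in 2 and lower in 3 of 6 in female TRAP (with library totals, higher in 2 and 3 and lower in 1 and 1). Hmgs, which makes HMG-CoA, was lower in TRAP in both sexes, at −0.81 ± 0.18 in males (FDR 0.000161) and −0.67 ± 0.12 in females (FDR 9.67e-06), and higher in male than in female total mRNA, at 0.40 ± 0.12 (FDR 0.0597). Idi, an isomerase of the pathway, was at −0.29 ± 0.18 in females (FDR 0.19) and −0.50 ± 0.33 in males (FDR 0.218). Fpps, the farnesyl diphosphate synthase, was at −0.03 ± 0.27 in males and 0.28 ± 0.20 in females, called in neither. Pmvk went the other way from Hmgs. It was higher in TRAP, at 0.91 ± 0.19 in males (FDR 6.33e-05) and 1.34 ± 0.17 in females (FDR 2.99e-11). Between male and female TRAP 0 of 6 were called by either tool, with 0 at an unadjusted p under 0.05.

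Of the other turnover and binding candidates, Jhedup, a neighbour and relative of Jhe, did not pass the filter, with means from 0.404 CPM in male TRAP to 3.69 ± 3.46 CPM in female total mRNA. Takeout (to), a small secreted protein of the family that resembles hormone carriers, was called in all 4 comparisons. It had 498 ± 32.2 CPM in male and 66.8 ± 11.2 CPM in female total mRNA (2.95 ± 0.16, FDR 1.48e-58), and 145 ± 33.1 against 22.1 ± 3.95 CPM in TRAP (2.76 ± 0.21, FDR 1.52e-30). Like the Jheh genes, it was lower in TRAP in both sexes, at −1.78 ± 0.21 and −1.50 ± 0.16.

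Allatostatins are neuropeptides named for their block of juvenile hormone synthesis in other insects, and of the 6 genes of allatostatins and their receptors 4 of 5 tested were called higher in male TRAP and 4 of 4 in female TRAP. In females AstA had 71.4 ± 13.7 CPM after the pull-down and 8.47 ± 2.5 before it (3.17 ± 0.21, FDR 1e-41), and 30.4 ± 5.13 against 9.63 ± 3.14 CPM in males (1.66 ± 0.24, FDR 5.88e-10). It was also lower in male than in female TRAP, at −1.18 ± 0.16 and FDR 6.7e-08. AstC was at 1.96 ± 0.30 in males and 1.96 ± 0.19 in females. In total mRNA none of 3 tested allatostatin genes was called between the sexes by the exact test or DESeq2. Of these, 0 had an unadjusted p under 0.05. Under library totals 2 were called higher in males, as were 14497 of all 31125 tested exon entries.

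The genes whose levels were most like each member over the 16 libraries were taken by Pearson r of log2(CPM + 1) among 8380 other genes, a description in which all points share the 4 groups and their depths. For Met these were dco (r = 0.956), EcR (0.939) and HDAC4 (0.934). For gce they were drk (0.934), Baldspot (0.912) and alt (0.908). For Kr-h1 the closest was CG45075, whose counts are the same reads, then Eip93F (0.907) and Lamp1 (0.899). For Jheh1 they were CG42486 (0.992), CG14933 (0.992) and Ldsdh1 (0.99), for Jheh2 Cyp6w1 (0.984), asRNA:CR46128 (0.977) and pippin (0.976), and for Jheh3 rumpel (0.982), alrm (0.975) and Csas (0.973). Jhe and jhamt were too low for this measure.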

How the data were processed

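Poly(A) RNA of 16 head samples was sequenced by the authors from single ends after a kit that does not mark strand. Per the submitters' processing notes and the methods, reads were aligned with STAR 2.7.2a to dm6 and uniquely mapped reads were counted per exon with featureCounts, and the deposited values are raw counts per exon entry. A deposited RPM table, the same counts rescaled, was not used. Entries were matched by symbol and position to an Ensembl annotation of the same build. A read can count in several overlapping entries.

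Each comparison used the 8 libraries of its groups: CPM above 2 in a share of 0.6 of them, TMM, and the exact test of edgeR 4.0.16 (R 4.3.3, limma 3.58.1) with Benjamini-Hochberg adjustment over all entries tested and a call at FDR under 0.2, as in the study. Standard errors and the interaction over 16 libraries came from its quasi-likelihood fit. Gene sums were taken over distinct intervals, and CPM per kb divides by their summed length. Genes with no entry past the filter were compared by exact permutation of 4 against 4. Named were all 8 members, each by its entry of highest mean CPM, and per list the 2 called genes of highest mean CPM and any gene of opposite TRAP direction in the sexes. Pmvk was named outside this rule, for the largest TRAP change of its list. The members, lists and tests were chosen with earlier results of these data known. The fits were tested on simulated counts. Alternatives were DESeq2 1.42.0, the quasi-likelihood test, RLE scaling, library totals, other filters and thresholds, a replicate block, gene sums, distinct intervals and each library left out.

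Depth was 15353672 to 25419045 counts. A value of 0 reads allows 3 counts, which is 0.118 to 0.195 CPM before TMM scaling and covers counting error only. The labels call the samples biological replicates, and p-values measure the spread between them. No 2 libraries agreed within sampling noise. In females, deviations from the group means of same-numbered TRAP and total mRNA libraries correlated at 0.253 to 0.582 in all 4 pairs. Female libraries of different numbers reached 0.395, and male total mRNA 3 and female TRAP 5, which cannot be a pair, 0.538. The correlations therefore do not settle whether numbers pair the female libraries. The exact test used no pairing, and a fit with the number as a block was run as an alternative. In males the 3 values were −0.023 to 0.228, and numbers were not taken as pairs.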

Additional observations from a re-analysis of the deposited data

Results flagged for a closer look

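Over the described entry of each of the 8 genes in each group, 32 sets of 4 libraries were examined for 1 library far from the other 3, and chance flags about 1 in 20 such sets. The 1 case was Jhe in male TRAP 5, whose entry at chr2R:16121183-16121925 had 0.88 CPM (21 reads), while the other 3 male TRAP libraries had 0.176 to 0.25 CPM.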

How the results depend on the processing

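The described entries of Met higher in TRAP in females, of Jheh1 to Jheh3 lower in TRAP in both sexes and of Jheh3 higher in male total mRNA kept their direction and call under every alternative run for them. Over the described entries, fits without 1 library gave the same call in 256 cases, a lost call in 19, a gained call in 1 and another sign in 12, and the other alternatives gave 258, 16, 4 and 16. Unless a value shows it, the cause was not tested.

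In male TRAP, entries called higher numbered 0 at FDR under 0.05, 1 with DESeq2, 1 with RLE, 6 with library totals and 0 to 3 without 1 library, and those called lower 14 without the filter, which tests more entries. In female TRAP, 8 were lower with library totals. Between the sexes in TRAP, higher entries numbered 0 with the quasi-likelihood test and 2 without the filter, and lower ones 0 to 2 without 1 library. In total mRNA 5 were higher with library totals, and lower entries numbered 7 at FDR under 0.05, 6 with library totals, 8 with the filter in every library and 7 to 12 without 1 library, and 1 gene was lower with gene sums in place of 2. In the interaction 2 were negative with library totals, as were 2926 of all 31299 tested entries. Without the filter, 14578 of all 81720 tested entries were called lower in male TRAP, and 883 of 80986 higher between the sexes in TRAP.

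The sign of the log2 fold change of gce in male TRAP turned with library totals (0.25), no filter (0.12) and some libraries left out (−0.20 to 0.04), and in female TRAP with library totals (0.26) and no filter (0.05). For males against females in total mRNA, Met turned with DESeq2 and RLE (both −0.0023), gene sums (−0.05) and libraries left out (−0.10 to 0.15), Kr-h1 with gene sums (−0.15) and libraries left out (−0.08 to 0.22), and Jheh2 with gene sums (−0.12). The interaction turned with library totals for gce (−0.0031), Kr-h1 (−0.05), Jheh1 (−0.13) and Jheh3 (−0.05), and without 1 library its range was −0.04 to 0.24 for Kr-h1, −0.07 to 0.22 for Jheh1 and −0.17 to 0.37 for Jheh3. None of these was called as reported.

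With the replicate number as a block, 3 entries were higher and 19 lower in females, where the numbers may pair the libraries, and no described call changed. Where numbers were not taken as pairs, the block gave 3 higher and 13 lower entries in male TRAP and 1 and 0 between the sexes in TRAP. It gave 2 and 11 in total mRNA and 0 and 0 in the interaction. With the block gce was at 0.09 in male TRAP, and the interactions were −0.06 for Jheh1 and −0.18 for Jheh3. Male total mRNA 3 and male TRAP 5 had no male library of the same number in the other fraction.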
